A study of Mus musculus with 26 samples.

Results

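The genes of insulin signalling studied here were the insulin receptor Insr, the related receptor Igf1r, the receptor substrates Irs1, Irs2 and Irs3, the phosphoinositide 3-kinase subunit Pik3r1, the kinases Akt1 and Akt2, the Akt substrate Tbc1d4 and the receptor inhibitor Grb14. They were chosen by gene name: every array probe that carried one of these 10 names was taken, which gave 23 probes of the 56605 on the array, against 37074 gene names in all. After the filter on dim probes, 22 of the 23 were tested, among 38832 tested probes with 25407 gene names, and all 10 genes kept at least 1 probe. The remaining probe, for Grb14 (A_55_P2827912), was well above background on 4 of 26 arrays.

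Insulin binds its receptor at the cell surface, and the activated receptor tyrosine kinase phosphorylates the IRS proteins, which serve as docking platforms. PI3K, made of a regulatory subunit such as the product of Pik3r1 and a catalytic subunit, is recruited there and makes the membrane lipid that brings Akt to the membrane. In adipocytes, Akt (AKT2 above all) phosphorylates the Rab-GTPase-activating protein encoded by Tbc1d4, and glucose transporter vesicles then move to the cell surface. GRB14 binds the activated receptor and inhibits it, and Irs3 is a rodent substrate gene known for its expression in fat.

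RNA came from subcutaneous white adipose tissue, the inguinal depot, of C57BL6/J male mice on a regular diet, each hybridised to 1 one-colour oligonucleotide array. All 26 mice had gone without food for 24 h before 18 h of refeeding, when they had food and water holding 20% glucose, so the data describe the refed state only. Total ChREBP KO mice (n = 7) were null for Mlxipl, the gene of the glucose-responsive transcription factor ChREBP, and ChREBPβ KO mice (n = 5) lacked exon 1b of this gene, which was deleted with CRISPR/Cas9 and starts the shorter isoform. The controls of each KO were WT mice of the same line (n = 7 in both lines). Both deletions were present in every cell of the mouse and the tissue was not sorted, so a difference need not arise in adipocytes. In such bulk tissue, fewer cells of a type and less RNA per cell cannot be told apart. The age of the mice is not given in the sources used here.

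Arrays had a median spot intensity of 59 to 108 over a median background of 15 to 23, with 70.2% to 76.5% of spots well above background and 0 saturated spots. All values below are log2 intensities after quantile normalization, and a difference of 1 is a doubling. A gene is represented by its brightest probe, and it is called changed at an adjusted p of 0.05 in limma, with p-values adjusted over all 38832 probes. At the brightest Mlxipl probe the KO arrays stood at 20.5% of WT in the total line and at 34.9% in the ChREBPβ line, and in both lines every KO array lay below every WT array, as the labels require. Its other tested probes differed by -0.90 and -0.13 in the total line and by -0.68 and 0.04 in the ChREBPβ line. None of the 10 adipocyte markers was below background on all arrays of a group. Markers of other tissue were present too and moved with the groups. The mean log2 intensity of 14 lymphocyte genes ran from 11.05 to 12.81 in WT of the total line, from 7.93 to 11.41 in total ChREBP KO, between 7.30 and 8.16 among ChREBPβ-line WT mice and from 7.26 to 8.99 in ChREBPβ KO. That of 12 skeletal muscle genes varied within each group, from 6.75 to 12.34, 6.96 to 14.27, 6.83 to 12.67 and 7.24 to 13.63 in the same order. No marker of these lists was below background on all arrays of a group either.

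Some of the probes are printed here because different probes of a gene did not always move together, and that of Irs2 because it is the only probe of its gene. Irs1, Irs3 and Pik3r1 also had 1 probe each, so no second probe stands beside their values. The printed probes are written 5′ to 3′ in lower case. The Insr probe lies on the minus strand of chr8:3159473-3159532 of mm9 and the Irs2 probe on the minus strand of chr8:11004490-11004549. The Akt1 probe, on the minus strand of chromosome 12, maps in parts between 113900509 and 113909775 and covers a span of 9267 bp with 60 bases. Capitals in it mark the ATG of the start codon. The Akt2 probes are on the plus strand at chr7:28418226-28418285 and, again in parts, between 28421973 and 28422113 of chromosome 7.
Insr A_52_P6490: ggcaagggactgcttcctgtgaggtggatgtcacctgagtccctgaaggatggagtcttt
Irs2 A_66_P102260: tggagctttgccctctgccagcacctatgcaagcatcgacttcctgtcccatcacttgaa
Akt1 A_52_P418014: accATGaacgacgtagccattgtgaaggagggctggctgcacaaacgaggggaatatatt
Akt2 A_55_P2066523: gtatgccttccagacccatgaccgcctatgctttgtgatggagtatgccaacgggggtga
Akt2 A_51_P408044: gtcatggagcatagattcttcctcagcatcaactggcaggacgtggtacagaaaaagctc

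The first comparison asked what the loss of both ChREBP isoforms changed. In total ChREBP KO, 5 of the 10 genes were called, and each of them was higher in KO: Insr, the substrates Irs1, Irs2 and Irs3, and Akt2. Irs3 rose most, to 4.22 times its WT level, whereas the other 4 rose by 1.32 to 1.56 times. Igf1r, Pik3r1, Akt1, Tbc1d4 and Grb14 did not pass the test. Changes were common in this comparison, since 45.8% of all 25407 genes were called, 25.8% higher and 20.1% lower, so that 5 of 10 is near the share among all genes. The median log2 fold change was 0.25 over the 10 genes and 0.05 over all genes.

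**Figure D1:**
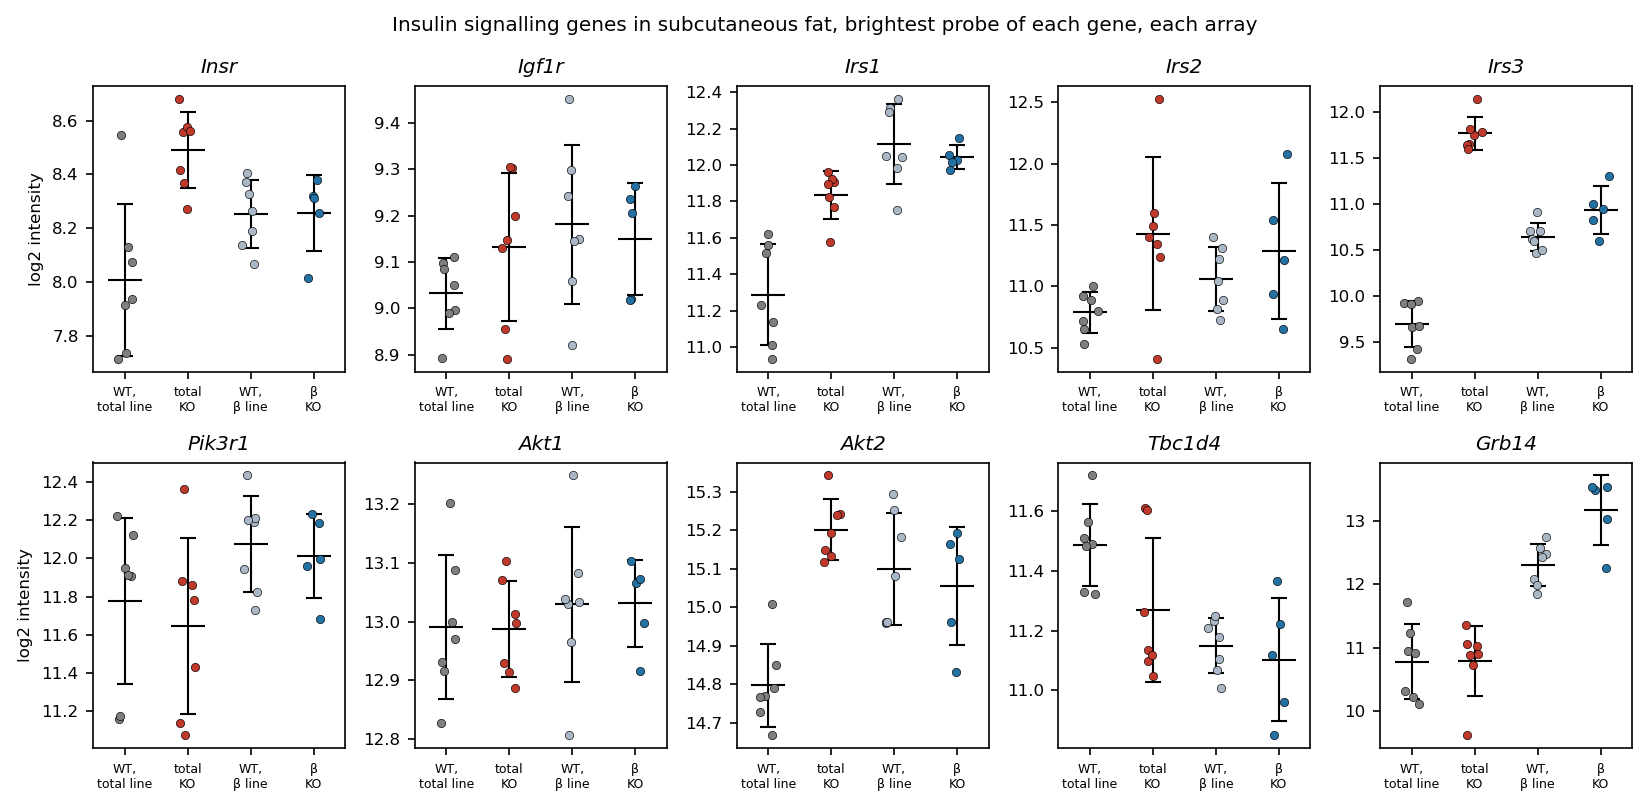
Log2 intensity (y axis) of the brightest probe of each of the 10 genes in the 4 groups (x axis), with 1 point per array and with bars for mean ± SD. Irs3 arrays of total ChREBP KO lie between 11.60 and 12.14, above those of every other group, and Grb14 is higher in both groups of the ChREBPβ line than in both groups of the total line.

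Insr, which encodes the insulin receptor, had a lowest, median and highest log2 intensity of 7.71, 7.94 and 8.55 in WT and of 8.27, 8.56 and 8.68 in total ChREBP KO. The KO arrays were the higher ones, but 1 WT array reached into their range. Its level rose 1.40-fold, or by 0.48 on the log2 scale (SE 0.10, adjusted p = 0.000313 in limma). The second Insr probe, shown above, rose as well, by 0.34 (SE 0.10, adjusted p = 0.00847). With slide as a fixed block Insr was at 0.36 and not called (limma adjusted p = 0.0728). No slide held both KO and WT arrays of the total line, so this block sets them against each other only through other arrays. With 15 slides it also leaves few residual degrees of freedom, so a lost call there cannot show a slide effect. Within wash batch 1 Insr differed by -0.13, against 0.48, 0.53 and 0.74 in the others. Igf1r, the receptor of insulin-like growth factors, had a lowest, median and highest value of 8.89, 9.05 and 9.11 in WT and of 8.89, 9.15 and 9.31 in KO. Of the KO arrays 5 lay above the highest WT array, the others lay within or beside the WT range, and the difference was 0.10 (95% interval -0.06 to 0.26, adjusted p = 0.29). None of its 4 probes was called, with differences from -0.20 to 0.10.

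The largest difference was that of Irs3, whose product is a substrate of the insulin receptor. In WT the lowest, median and highest log2 intensity were 9.31, 9.67 and 9.94, and in total ChREBP KO they were 11.60, 11.75 and 12.14. Every KO array thus lay above every WT array, which was true in this direction or the other of 14.8% of all genes. The log2 fold change was 2.08 (SE 0.11, 95% interval 1.85 to 2.30, limma adjusted p = 2.45e-13). It was present within each of the 4 wash batches that the labels name, at 1.78, 2.01, 1.82 and 2.59. The Irs3 probe lies on the minus strand of chr5:138084272-138084331 of mm9, on the same chromosome as Mlxipl and 2.47 Mb from the Mlxipl probe.

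Irs1, the substrate that couples the receptor to PI3K in adipocytes, ranged from 10.94 over a median of 11.23 to 11.62 in WT and from 11.58 over 11.90 to 11.96 in KO. Only the lowest KO array fell within the WT range. The log2 fold change was 0.55 (SE 0.10, adjusted p = 0.000134), or 1.46-fold. With the lymphocyte and muscle scores as covariates the value of Irs1 was 0.30 and it was no longer called (adjusted p = 0.175). Irs2, the other widely expressed substrate, ranged from 10.53 over 10.80 to 11.01 in WT and from 10.41 over 11.40 to 12.53 in KO. The KO arrays were spread more widely, with both the lowest and the highest array of the pair of groups among them. Its log2 fold change was 0.64 (SE 0.22, adjusted p = 0.0191), and this call was lost without replicate 5 of total ChREBP KO, where it was 0.46 (adjusted p = 0.0535), and with the scores as covariates, where it was 0.52 (adjusted p = 0.31), and with slide as a fixed block (0.71, adjusted p = 0.277). Within wash batch 2, which held 1 KO and 2 WT arrays, Irs2 differed by -0.28, against 0.58, 0.65 and 1.03 in the other wash batches.

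Since the 3 substrate genes rose together in total ChREBP KO, the sequence before their transcription start is shown. ChREBP binds DNA at paired E-box-like sites, and the 6 letters CACGTG, which read the same on both strands, were the only motif searched. Of the 10 genes, 9 had windows in the RefSeq promoter table of GRCm38.p6 used here, with 14 windows of 300 bases (250 before and 50 after the start). The letters were in 2 of these 14 windows, those of Irs1 and Irs2, against 7.15% of all 32851 windows. Their last base lay 110 bases before the start of Irs1 and 39 bases before that of Irs2. A match is a description of the letters and no measure of binding, and their absence from the Irs3 window says only that these letters are not in it. The 250 bases before the start follow, 5′ to 3′ and all from the minus strand, with CACGTG in capitals, for Irs1 (chr1:82291440-82291689), Irs2 (chr8:11008930-11009179) and Irs3 (chr5:137645715-137645964).
Irs1: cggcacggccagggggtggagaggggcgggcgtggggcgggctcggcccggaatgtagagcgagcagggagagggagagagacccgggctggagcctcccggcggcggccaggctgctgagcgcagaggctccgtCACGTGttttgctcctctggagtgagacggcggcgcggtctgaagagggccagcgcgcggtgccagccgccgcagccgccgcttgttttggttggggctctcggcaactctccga
Irs2: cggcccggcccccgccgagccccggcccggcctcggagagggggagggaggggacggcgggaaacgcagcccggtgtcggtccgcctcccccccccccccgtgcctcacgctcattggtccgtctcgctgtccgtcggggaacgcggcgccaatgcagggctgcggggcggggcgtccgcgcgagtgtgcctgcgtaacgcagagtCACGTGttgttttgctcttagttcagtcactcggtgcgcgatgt
Irs3: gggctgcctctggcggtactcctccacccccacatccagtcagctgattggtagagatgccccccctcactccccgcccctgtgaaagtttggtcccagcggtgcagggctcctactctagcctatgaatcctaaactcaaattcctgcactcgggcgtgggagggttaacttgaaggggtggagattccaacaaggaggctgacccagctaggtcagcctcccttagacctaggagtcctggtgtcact

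Pik3r1, which encodes the main regulatory subunit of PI3K, ranged from 11.16 over 11.91 to 12.22 in WT and from 11.07 over 11.78 to 12.37 in KO. The groups overlapped, with a difference of -0.13 (95% interval -0.51 to 0.25, adjusted p = 0.594). Akt2, the Akt kinase most closely tied to insulin-stimulated glucose uptake, ranged from 14.67 over 14.77 to 15.01 in WT and from 15.12 over 15.19 to 15.34 in KO. The groups did not overlap, with every KO array above every WT array, where 14.8% of all genes had no overlap. The log2 fold change was 0.40 (SE 0.07, adjusted p = 3.81e-05), or 1.32-fold, and the other Akt2 probes rose by 0.40 (SE 0.13, adjusted p = 0.0138) and 0.35 (SE 0.11, adjusted p = 0.0122). All 3 Akt2 probes were therefore called in the same direction.

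The Akt1 probes did not move together. At the brightest probe the values of Akt1 ran from 12.83 over 12.97 to 13.20 in WT and from 12.89 over 13.00 to 13.10 in KO, a difference of 0.00 (95% interval -0.13 to 0.13, adjusted p = 0.979). At the probe that holds the ATG shown above, Akt1 ran from 7.91 over 8.10 to 8.74 in WT and from 7.43 over 7.84 to 8.07 in KO. The KO arrays were lower there with some overlap, and the log2 fold change was -0.38 (SE 0.15, adjusted p = 0.0371). The third probe differed by 0.08 (adjusted p = 0.264). Among all 22 tested probes of the 10 genes, 9 were called, 8 higher and this one lower, where 17667 of all 38832 probes were called.

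Tbc1d4, also called AS160, restrains glucose transporter vesicles until Akt phosphorylates it. It ran from 11.32 over 11.49 to 11.72 in WT and from 11.05 over 11.13 to 11.61 in KO. The KO arrays tended to be lower, with 2 of them inside the WT range, and the difference of -0.22 (SE 0.09) did not pass the test (adjusted p = 0.0565). Tbc1d4 was called lower with wash batch as a fixed block (-0.24, adjusted p = 0.0481), with slide as a random block (-0.23, adjusted p = 0.0485) and among probes well above background on all arrays (-0.23, adjusted p = 0.0372). Within wash batches 1 to 4 it differed by -0.63, -0.43, -0.06 and 0.04. Its other probes differed by 0.18 and -0.20 and were not called either. Grb14 ran from 10.12 over 10.91 to 11.71 in WT and from 9.62 over 10.89 to 11.35 in KO. The ranges overlapped over most of their length, with a difference of 0.02 (95% interval -0.52 to 0.55, adjusted p = 0.969).

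The lymphocyte score was lower in total ChREBP KO than in its WT on most arrays, with all 14 genes of that list called lower, and adipocyte markers were higher, with 9 of 10 called. The adipocyte markers had a median log2 fold change of 0.52, and their score ran from 15.49 to 15.96 in WT and from 16.29 to 16.46 in KO. Insr, Irs1 and Akt2 rose by a similar size, at 0.48, 0.55 and 0.40. The adipocyte score was not used as a covariate, and whether these rises follow it was not tested. The muscle list had 4 of 12 genes called higher, the macrophage list 3 of 8 lower and the endothelial list 3 of 5 higher, while none of the 3 tested epithelial genes was called. Of all genes, 45.8% were called in this comparison. The lymphocyte scores of both groups overlapped on 3 arrays: total ChREBP KO replicates 3 and 8 had scores of 11.41 and 11.23, and WT replicate 4 had 11.05. On these arrays, Irs3 was at 11.65 and 11.60 in KO and at 9.91 in WT, so that both KO arrays lay well above this WT array, if by less than the 2.08 between the group means. Irs1 was at 11.77 and 11.58 in KO against 11.62 in WT, and Insr at 8.27 and 8.37 in KO against 8.55 in WT. Insr was thus lower on these KO arrays, and Irs1 lay on both sides of the WT value. The comparison rests on 1 WT array, the one with the highest Insr of its group, and the muscle scores were not alike, at 10.6 and 11.5 in KO against 6.89 in WT. The adipocyte scores were not alike either, at 16.29 and 16.35 in KO against 15.96 in WT. With the lymphocyte and muscle scores as covariates, Irs3 (1.84, adjusted p = 1.13e-08), Insr (0.38, adjusted p = 0.0307) and Akt2 (0.31, adjusted p = 0.0284) remained called, and Irs1 and Irs2 did not. In that setting 5591 of all 38832 probes were called.

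The slope of each gene on each score was estimated within the groups, per unit of score. The lymphocyte score had a mean of 12.16 in WT and 9.82 in KO of the total line. The largest slope in size was that of Grb14 on this score, at -0.12 (SE 0.11, adjusted p = 0.495 in limma). None of the 20 slopes (10 genes on 2 scores) passed the test, where 11.2% of all genes had a called slope on the lymphocyte score and 0.575% on the muscle score. The largest for Insr was -0.09 per unit of lymphocyte score (adjusted p = 0.0824), which was called without replicate 1 of ChREBPβ KO, at -0.11 (adjusted p = 0.0331).

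**Figure D2:**
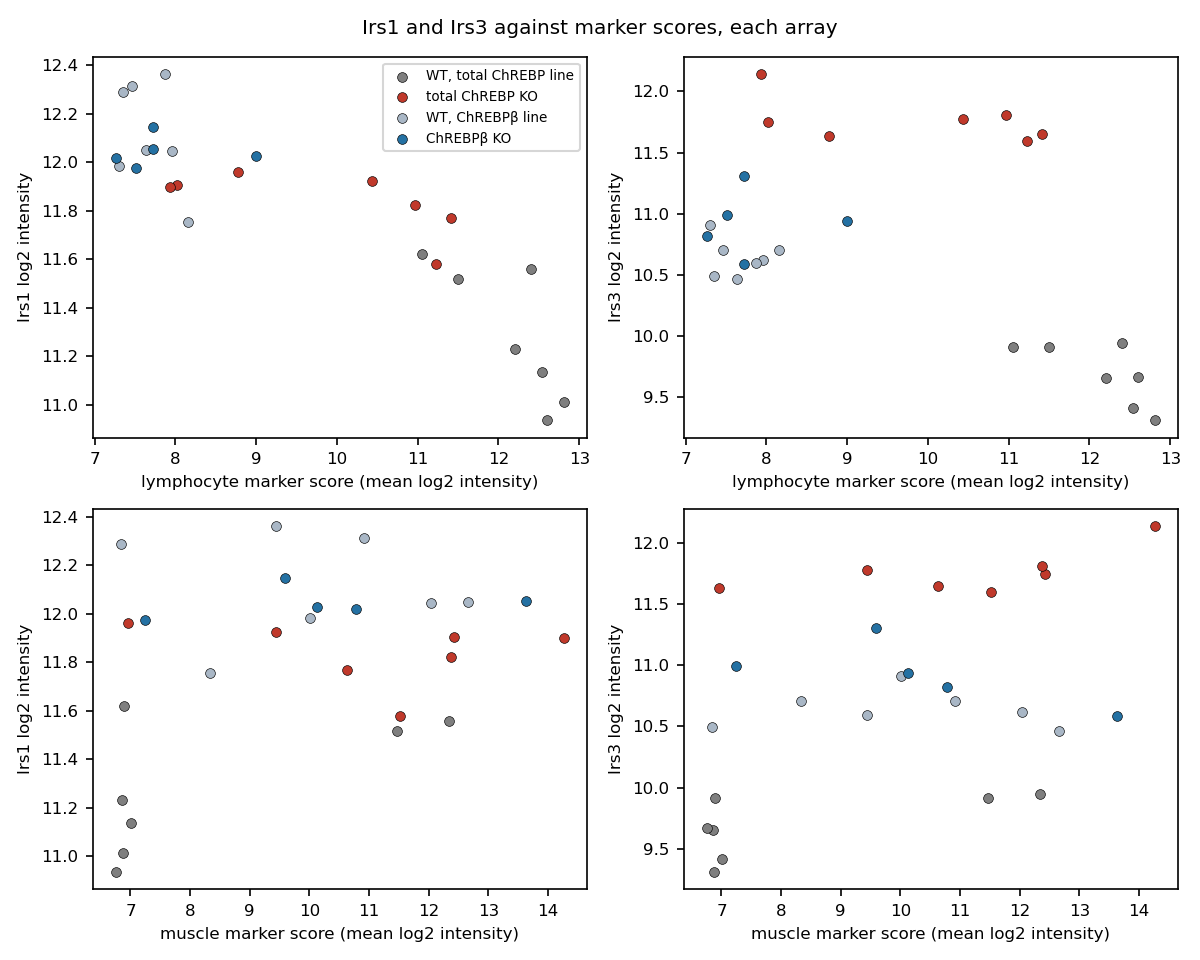
Log2 intensity of Irs1 (left) and Irs3 (right) against the lymphocyte score (top) and the skeletal muscle score (bottom), each score being the mean log2 intensity of its list, with 1 point per array coloured by group. Irs3 is near 11.6 in total ChREBP KO arrays with lymphocyte scores above 11, and below 10 in WT arrays of the same line.

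The second comparison asked what the loss of ChREBPβ alone changed. None of the 10 genes was called, and 2 of them, Irs3 and Grb14, had an unadjusted p under 0.05. Only 13 of 25407 genes, or 0.0512%, were called in this comparison, so few genes of any kind passed. The median log2 fold change was -0.02 over the 10 genes and 0.00 over all genes. Among Insr, Igf1r, Irs1, Akt1, Akt2 and Tbc1d4, the 95% interval that reached farthest from 0 was that of Irs1, down to -0.31 on the log2 scale, while those of Irs2, Pik3r1, Irs3 and Grb14 reached farther.

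Grb14 had the largest difference. The 5 ChREBPβ KO arrays were at 12.25, 13.03, 13.47, 13.52 and 13.52, against a lowest, median and highest of 11.85, 12.42 and 12.73 in WT. Of the KO arrays, 4 were above every WT array, and replicate 4 lay within the WT range. The log2 fold change was 0.86 (SE 0.28, 95% interval 0.27 to 1.44), or 1.81-fold, which did not pass the test (limma adjusted p = 0.395). The other probes of Grb14 gave 1.16 (SE 0.24, adjusted p = 0.0827) and 0.92 (SE 0.28, adjusted p = 0.325). Within the 3 wash batches that held both groups it was 1.40, 0.31 and 1.36.

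**Figure D3:**
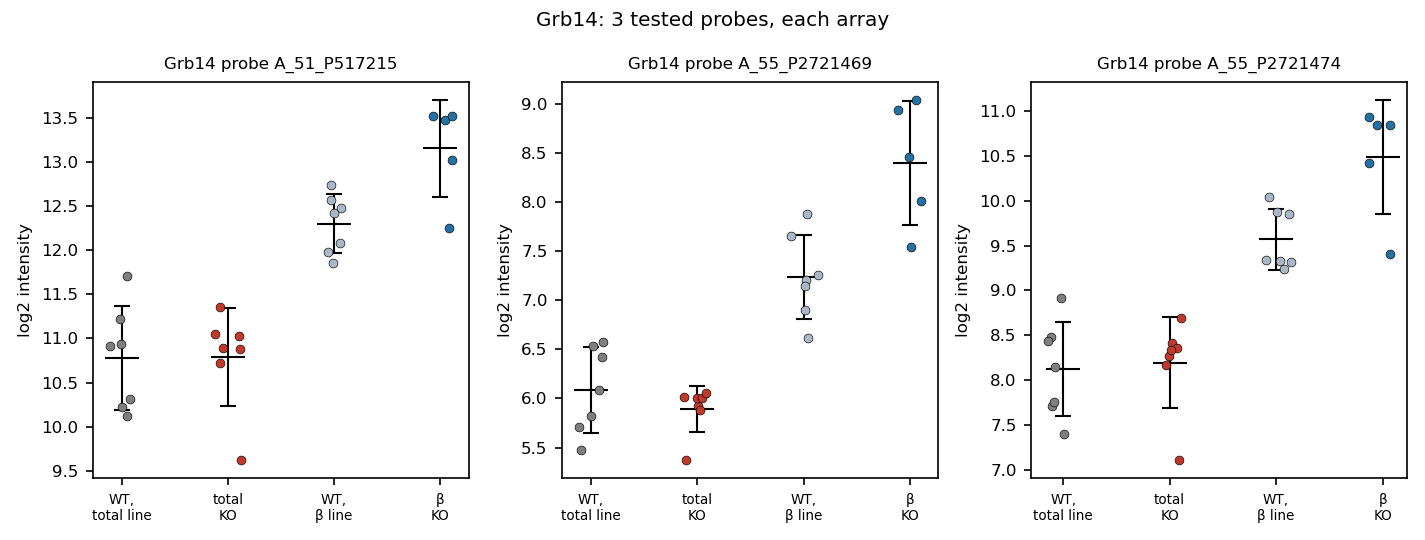
Log2 intensity (y axis) at the 3 tested Grb14 probes in the 4 groups (x axis), with 1 point per array and with bars for mean ± SD. The order of the groups is alike at each probe: both groups of the total line are lowest, WT of the ChREBPβ line is higher, and ChREBPβ KO has the highest mean.

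For Irs3, the 5 ChREBPβ KO arrays were at 10.59, 10.82, 10.94, 10.99 and 11.30, and WT ran from 10.46 over 10.62 to 10.91. The groups overlapped, and the difference was 0.29 (SE 0.12, adjusted p = 0.557). Irs2 was at 10.65, 10.94, 11.22, 11.54 and 12.08 in KO and ran from 10.73 over 11.04 to 11.40 in WT, a difference of 0.23 (95% interval -0.27 to 0.72, adjusted p = 0.907) with KO arrays on both sides of the WT range. Irs1 was at 11.97, 12.02, 12.03, 12.05 and 12.15 in KO and ran from 11.75 over 12.05 to 12.36 in WT. All KO values of Irs1 lay inside the WT range, with a difference of -0.07 (95% interval -0.31 to 0.16).

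The receptors and kinases of the ChREBPβ line overlapped likewise. Insr was at 8.01, 8.26, 8.31, 8.32 and 8.38 in ChREBPβ KO, against 8.07, 8.27 and 8.41 as lowest, median and highest in WT, a difference of 0.00 (95% interval -0.22 to 0.23). Akt2 was at 14.83, 14.96, 15.13, 15.17 and 15.19 in KO, against 14.96, 15.08 and 15.30 in WT, a difference of -0.04 (95% interval -0.20 to 0.11). The Akt1 probe with the ATG had a difference of -0.47 (SE 0.16, adjusted p = 0.408), while the brightest Akt1 probe had 0.00 (95% interval -0.14 to 0.14). The differences of Igf1r, Pik3r1 and Tbc1d4 at their brightest probes were -0.03, -0.06 and -0.05. Between ChREBPβ KO and its WT, no gene of the lymphocyte, muscle, adipocyte, macrophage, endothelial or epithelial lists was called.

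**Figure D4:**
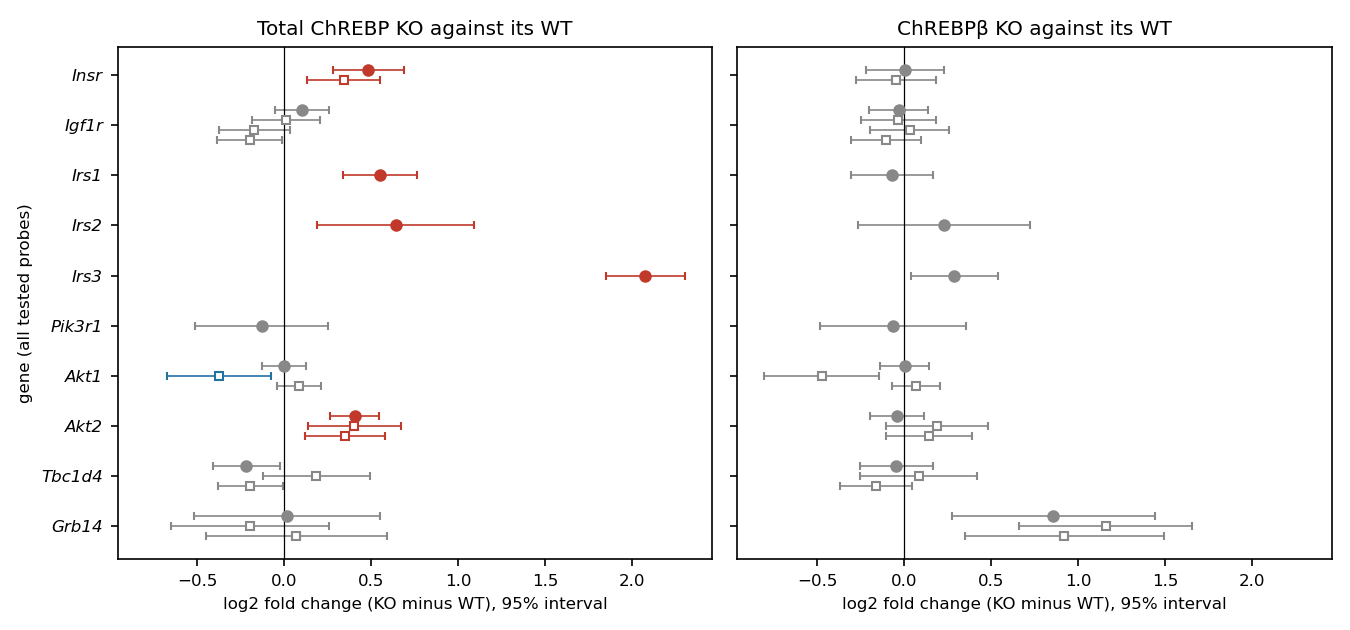
Log2 fold change (x axis, KO minus WT) with 95% intervals for all 22 tested probes of the 10 genes, for total ChREBP KO (left) and ChREBPβ KO (right). Filled circles are the brightest probe of a gene and open squares its other probes, red is called higher, blue called lower and grey not called. In total ChREBP KO 8 probes are red and 1 is blue, and in ChREBPβ KO 0 are coloured.

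Whether both deletions acted differently was tested as the ChREBPβ effect minus the total effect. Of the 10 genes 4 were called, against 23.2% of all genes. Irs3 differed by -1.79 (SE 0.16, limma adjusted p = 3.6e-08), Irs1 by -0.62 (SE 0.15, adjusted p = 0.00562), Insr by -0.48 (SE 0.15, adjusted p = 0.0207) and Akt2 by -0.45 (SE 0.10, adjusted p = 0.00281). All 4 had a larger effect in the total line than in the ChREBPβ line. The 10 adipocyte markers had a median of -0.52 in this difference, with 5 of them called, all lower. The other Akt2 probes (-0.22 and -0.21) and the second Insr probe (-0.39, adjusted p = 0.0679) were not called. The call of Insr was lost without replicate 4 of ChREBPβ KO, where the difference was -0.42 (adjusted p = 0.0513). Irs2, called in the total line, did not differ by this test (-0.41, 95% interval -1.08 to 0.26, adjusted p = 0.39). With the lymphocyte and muscle scores as covariates, Irs3 alone of the 10 remained called (-1.55, adjusted p = 2.04e-05), while Insr, Irs1 and Akt2 were at -0.35, -0.35 and -0.34. In that setting 2325 of all 38832 probes were called. With slide as a fixed block, which sets KO against WT of the total line only indirectly, Irs3 was again the only one called (-1.62, adjusted p = 0.0413). In that setting 616 of all 38832 probes were called. There the values of Irs1 (-0.89) and Akt2 (-0.61) were larger in size than without the block and that of Insr smaller (-0.25).

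Grb14 differed the other way. At its brightest probe the ChREBPβ effect exceeded the total effect by 0.84 (SE 0.38), which did not pass the test (adjusted p = 0.118), and without replicate 4 of ChREBPβ KO it was 1.07 (adjusted p = 0.0449). The Grb14 probe A_55_P2721469 was called, at 1.35 (SE 0.33, adjusted p = 0.00441). That probe lies at chr2:64766947-64767006 of mm9 on the minus strand.

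WT mice of both lines were also set side by side, since the total and the ChREBPβ effects rest on different controls. These mice carry no deletion, so a difference here is one between lines or between the tissue pieces. Of the 10 genes 6 were called, 5 of them higher and 1 lower in WT of the ChREBPβ line. The share among all genes was 45.9%, with 26.2% higher and 19.6% lower. The lymphocyte scores of both WT groups did not overlap, so the line and this score cannot be told apart. All 14 lymphocyte genes were lower in WT of the ChREBPβ line, 6 of 8 macrophage and 6 of 10 adipocyte genes and 3 of 5 endothelial genes were higher, and no muscle or epithelial gene was called. With both scores as covariates, none of the 10 was called, where 1326 of all 38832 probes were called. Among all called probes 56.5% were higher in this comparison, against 43.4% when the median intensity, and 48.6% when the processed signal, was scaled to each array's 75th percentile.

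Grb14 differed most between the lines, with a log2 difference of 1.52 (SE 0.26, adjusted p = 3.2e-05), or 2.88-fold. Its WT arrays did not overlap, from 10.12 to 11.71 in the total line and from 11.85 to 12.73 in the ChREBPβ line. The other probes of Grb14 gave 1.15 and 1.45, again without overlap, where 17% of all genes had no overlap between these groups. Irs3 was higher by 0.95 (SE 0.11, adjusted p = 2.33e-07) and Irs1 by 0.83 (SE 0.10, adjusted p = 6.49e-07), and neither overlapped. The Irs3 level of WT in the ChREBPβ line thus lay between those of WT and KO in the total line, and the arrays of these 3 groups did not overlap.

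Akt2 was higher by 0.30 (SE 0.07, adjusted p = 0.000807) at its brightest probe, whereas its other probes differed by -0.05 and -0.06 and were not called. Insr was higher by 0.24 (SE 0.10, adjusted p = 0.0459), a call that was lost without any one of 16 of the 26 arrays, where the highest adjusted p was 0.114. The second Insr probe differed by 0.12 and was not called (adjusted p = 0.37). Tbc1d4 was lower by 0.34 in the ChREBPβ line (log2 difference -0.34, SE 0.09, adjusted p = 0.0044), without overlap, and its probe A_55_P2817204 was also lower (-0.30, adjusted p = 0.00907). Its remaining probe A_52_P381430 differed by -0.01 (limma adjusted p = 0.983). By the mean over its probes Tbc1d4 was not called (-0.21, limma adjusted p = 0.084). Igf1r, Irs2, Pik3r1 and Akt1 were not called, with differences of 0.15, 0.27, 0.30 and 0.04. ChREBPβ KO minus its WT and WT against WT share the WT arrays of the ChREBPβ line, and total ChREBP KO minus its WT shares those of the total line.

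A list of 57 other insulin signalling genes gave the surroundings of the 10, of which 56 were tested and Irs4 was not. In total ChREBP KO 43 of the 56 were called, 26 higher and 17 lower, with a median log2 fold change of 0.12, where 45.8% of all genes were called. In ChREBPβ KO 0 were called in limma, against 0.0512% of all genes, and 7 had an unadjusted p under 0.05. In the difference between both effects 22 were called, 6 higher and 16 lower, against 23.2% of all genes, and between WT lines 36 were called, 23 higher and 13 lower, against 45.9%. With the scores as covariates these counts were 23, 0, 13 and 2, in the order given. Calls over all 38832 probes fell as well, from 17667 to 5591 in total ChREBP KO, from 8755 to 2325 in the difference between effects and from 17644 to 1326 between WT lines.

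Upstream of the receptor in total ChREBP KO, 3 of 4 genes for ligands and their clearance rose and 1 fell. Igf1, an insulin-like growth factor, rose by 0.68 (SE 0.07), and Ide, an insulin-degrading enzyme, by 0.81 (SE 0.10). Of 8 adaptors near the receptor, 3 rose and 4 fell, and among these Sh2b2, which encodes the adaptor APS, fell by 1.14 (SE 0.16). Of 7 brakes on the receptor, 2 rose and 4 fell. Among these Ptprf, a receptor tyrosine phosphatase, rose by 1.21 (SE 0.14), while Enpp1, a membrane phosphodiesterase that inhibits the receptor, fell by 1.29 (SE 0.21), and the cytokine-signalling inhibitors Socs1 and Socs3 fell by 1.03 (SE 0.23) and 0.73 (SE 0.28).

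Of 5 PI3K subunits, 3 rose and 1 fell. Pik3r2, a regulatory subunit, rose by 0.92 (SE 0.06, adjusted p = 7.23e-12), and Pik3cd, the catalytic subunit typical of leukocytes, fell by 1.60 (SE 0.34). Of 4 lipid phosphatases, 2 rose and 1 fell, among them Inppl1 (SHIP2), which rose by 0.62 (SE 0.07), and Inpp5d (SHIP1), the form of blood cells, which fell by 1.14 (SE 0.27). The lymphocyte score was lower in total ChREBP KO on most arrays, and whether the falls of Pik3cd and Inpp5d follow it was not tested. Of 9 genes for Akt, its kinases and its brakes, 4 rose and 3 fell, with Mtor falling by 0.72 (SE 0.13).

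Of 12 Akt targets and glucose transport genes, 5 rose and 3 fell. Pde3b, the phosphodiesterase through which insulin restrains lipolysis, rose by 1.27 (SE 0.09, adjusted p = 8.3e-11), from 12.61 ± 0.20 (SD, n = 7) in WT to 13.88 ± 0.12 (SD, n = 7) in KO. Slc2a4, the insulin-regulated glucose transporter GLUT4, fell by 0.87 (SE 0.08, adjusted p = 1.71e-09), from 16.22 ± 0.17 (SD, n = 7) to 15.35 ± 0.11 (SD, n = 7). Of 7 genes of the mTORC1 arm, 4 rose and 0 fell, and Eif4ebp1, a repressor of translation controlled by mTORC1, rose by 1.25 (SE 0.08, adjusted p = 1.16e-11). KO and WT arrays did not overlap for Pde3b, Slc2a4 or Eif4ebp1, nor for other listed genes such as Igf1, Ide, Sh2b2, Ptprf and Pik3r2. Among all genes, 14.8% had no overlap in this comparison.

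**Figure D5:**
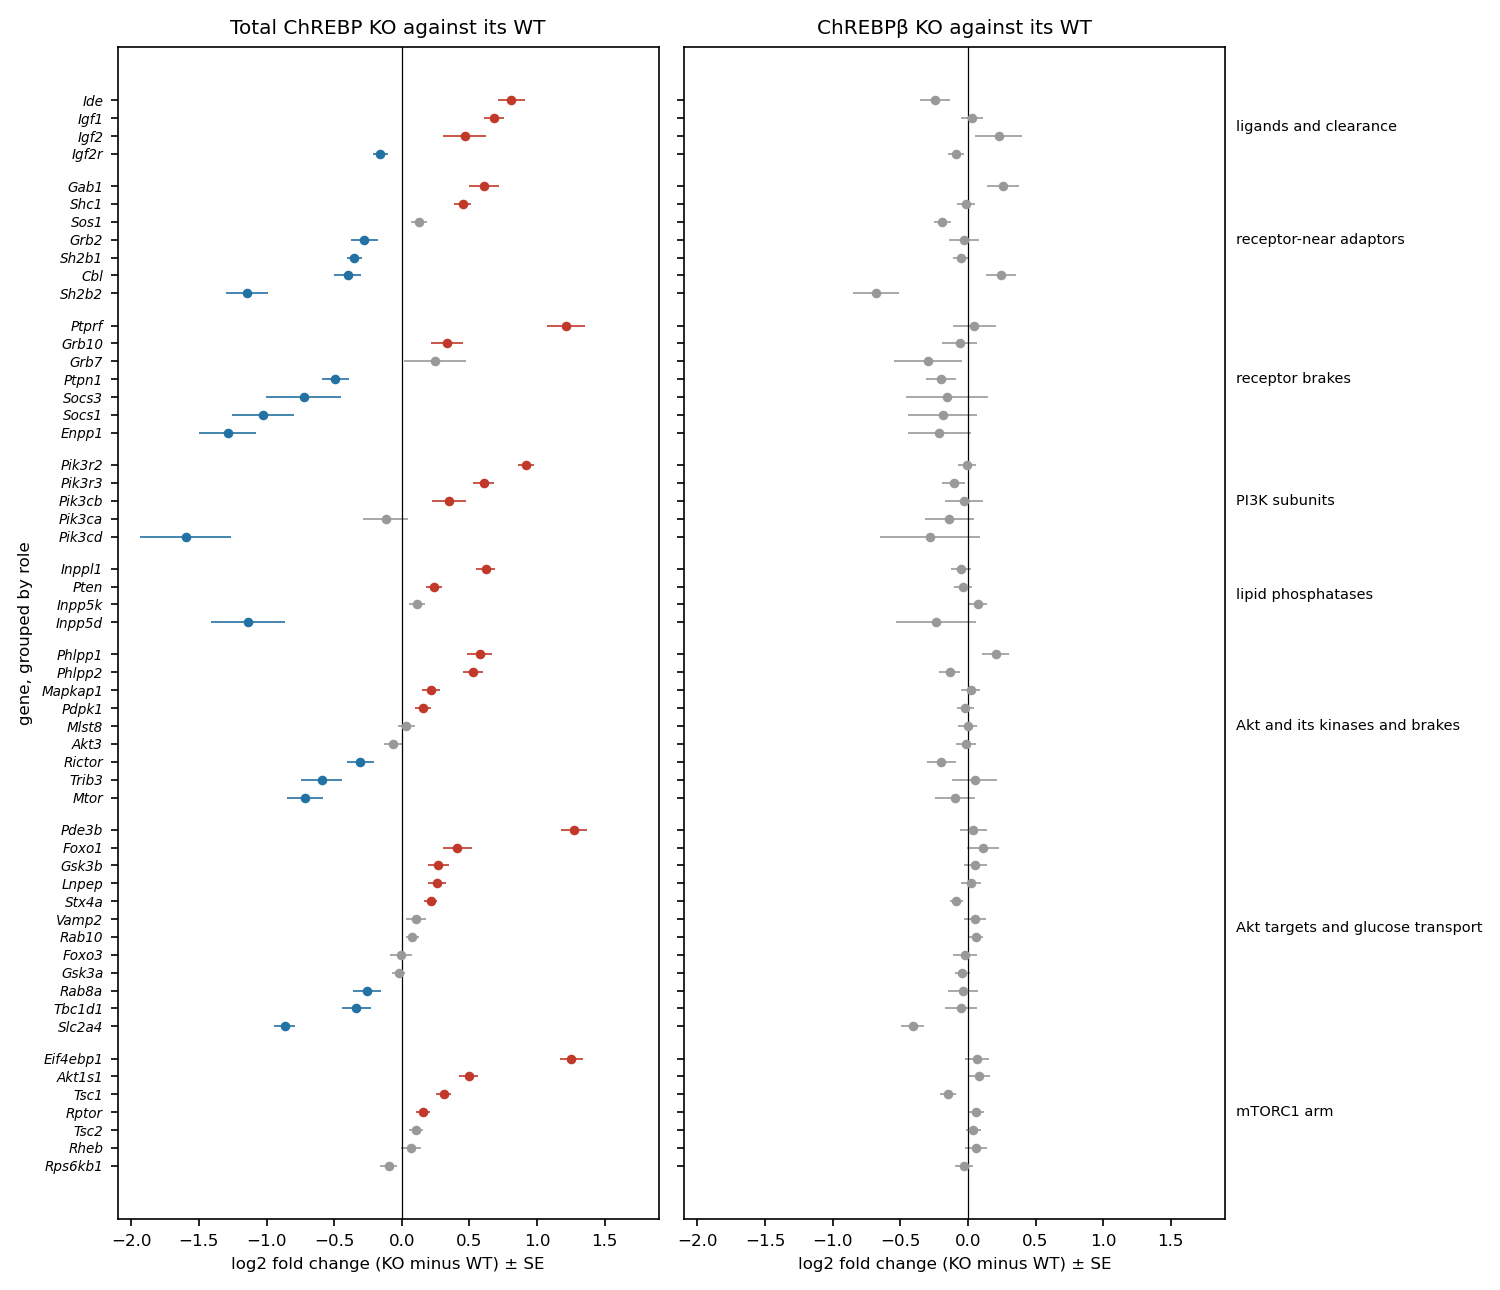
Log2 fold change (x axis, KO minus WT) ± SE of 55 of the 56 other insulin signalling genes, grouped by role, in total ChREBP KO (left) and ChREBPβ KO (right). Red is called higher, blue called lower and grey not called: 25 are red and 17 blue on the left, and none is coloured on the right.

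In ChREBPβ KO, Slc2a4 had the smallest p of the list. It was at 16.17 ± 0.14 (SD, n = 7) in WT and at 15.76 ± 0.11 (SD, n = 5) among ChREBPβ KO mice, and the arrays did not overlap, as was true of 0.366% of all genes in this comparison. The difference of -0.41 (SE 0.08) missed the threshold (limma adjusted p = 0.0606), and it was called in 6 of 42 alternative settings, with adjusted p between 0.0118 and 0.955. Sh2b2 differed by -0.68 (SE 0.17, adjusted p = 0.221).

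In the difference between both effects, Pde3b (-1.23), Eif4ebp1 (-1.19), Ptprf (-1.17), Ide (-1.05) and Pik3r2 (-0.93) had the lowest values among called genes, followed by Pik3r3 (-0.71), a further regulatory subunit of PI3K, Inppl1 (-0.67) and Phlpp2 (-0.66), a phosphatase of Akt. The 6 that were higher were Enpp1 (1.08), the ubiquitin ligase gene Cbl (0.65), the Akt-binding pseudokinase gene Trib3 (0.64), Mtor (0.62), Slc2a4 (0.46) and the adaptor gene Sh2b1 (0.30). Slc2a4 was therefore lower by less in the ChREBPβ line than in the total line (adjusted p = 0.0049).

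Between WT lines, the largest differences upward in the ChREBPβ line were those of Gab1 (0.90), a docking protein, Ptprf (0.88), the growth factor gene Igf2 (0.87), Trib3 (0.73), the catalytic PI3K subunit gene Pik3cb (0.60), Phlpp2 (0.59), Grb10 (0.59), a relative of Grb14, and Pik3r2 (0.58). Downward they were Pik3cd (-1.71), Enpp1 (-1.31), Inpp5d (-0.99), Grb7 (-0.80), another relative of Grb14, Socs1 (-0.63), Sh2b1 (-0.45), Sh2b2 (-0.40) and the receptor phosphatase gene Ptpn1 (-0.40). Slc2a4 did not pass the test between the lines, with a difference of -0.05 (95% interval -0.20 to 0.11).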

How the data were processed

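Total RNA of subcutaneous white adipose tissue from 26 refed mice was labelled with Cy3 and hybridised to one-colour Agilent arrays, 1 per mouse, which the labels give as separate samples. Groups came from the sample titles. The authors extracted spot intensities with Feature Extraction 10.10.1.1, and the deposited scanner files hold these intensity values on a linear scale. A further table that the authors deposited holds log2 values of 40168 probes, for which the methods name a quality filter, quantile normalization and, for replicated probes, their median. It was used as an alternative.

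Main values were computed from the median spot intensity without background subtraction. The filter kept a probe whose signal passed the scanner's flags (detected, significantly positive, well above background) in 21 or more of the 26 arrays or in 75% of the arrays of 1 group, scaled from the 26 of 32 arrays in the methods, and 97 values of outlier spots were set to missing. The median of replicate spots was taken before quantile normalization, since this order matched the deposited table: group differences of the genes reported here differed by at most 0.00385. A model with 1 mean per group and 22 residual degrees of freedom was fitted over the 26 arrays in limma 3.58.1 (lmFit, eBayes; R 4.3.3), with Benjamini-Hochberg adjustment over 38832 probes. The number of arrays limits the precision, and intervals are at 95%. The fit was tested on simulated data.

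The genes and lists were chosen with earlier results of these data known. Named are all 10 genes with every probe, Mlxipl as a check of the labels, and from the pathway list, among called genes in each comparison, those with the 8 largest rises and falls, save 1 gene that is counted but not reported here. Sh2b2 and Slc2a4 in ChREBPβ KO and the Akt1 probe were singled out after their values were seen. A marker score is the average over a list's genes of their log2 intensities on one array. Probe positions are those of the array files for mm9, where no annotation was used here, and promoters those of RefSeq for GRCm38.p6. Alternatives covered background correction, scaling, the filter, outlier spots, the order of steps, weights, blocks for wash batch, slide and replicate number, the scores as covariates, the mean over probes, and leaving out each array. Each wash batch lay within 1 of 2 scan days, so its block covers the scan day as well.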

Additional observations from a re-analysis of the deposited data

Results flagged for a closer look

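Of 40 sets of arrays (10 genes in 4 groups), 2 held an array far from the rest of its group by Dixon's test, as chance gives in about 5% of groups. These were Irs3 on replicate 7 of total ChREBP KO, at 12.14 and the highest of its group, and Grb14 on replicate 2 of total ChREBP KO, at 9.62 and the lowest of its group.

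The effects of both deletions differed by the interaction term in limma (ChREBPβ effect minus total effect) for Insr (-0.48), Irs1 (-0.62), Irs3 (-1.79), Akt2 (-0.45) and the Grb14 probe A_55_P2721469 (1.35).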

How the results depend on the processing

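Irs3 in total ChREBP KO and in the difference between effects was called in every setting that gave a test, and none of the 10 genes was called in ChREBPβ KO in any of them. With the lymphocyte and muscle scores as covariates, calls among the 10 genes were 3 in total ChREBP KO, 1 in the difference between effects and 0 between WT lines, and among pathway genes 23, 13 and 2, with 5591, 2325 and 1326 of all 38832 probes called. With slide as a fixed block they were 3 and 1 among the 10 genes and 23 and 6 among pathway genes, for total ChREBP KO and the difference between effects, with 8432 and 616 probes called in all, and the 15 called probes of ChREBPβ KO became 0. The 26 arrays lay on 15 slides, and no slide held both groups of the total line. This block thus leaves few residual degrees of freedom, and its lost calls cannot show a slide effect. In ChREBPβ KO, 1 pathway gene, Slc2a4, was called with normexp and with array weights, where 18 and 60 probes were called in all. When only these groups were fitted, 2 probes were called. Between WT lines 3 of the 10 genes were called by the mean over the probes of a gene, where 11793 of all 25407 genes were called. The cause of these shifts was not tested.

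Leaving out each array gave 5 to 6 calls among the 10 genes in total ChREBP KO, 0 in ChREBPβ KO, 4 in the difference and 5 to 6 between WT lines, and among pathway genes 37 to 44, 0 to 1, 21 to 25 and 32 to 38. Over all 38832 probes the calls ran from 15977 to 18618, 2 to 106, 7164 to 10218 and 16122 to 17875 in the same order. Called slopes on the scores were 0 to 1. Among values called before or after, signs turned for Akt1 in total ChREBP KO with the processed signal scaled to the 75th percentile (0.14, adjusted p = 0.0476), for Insr between WT lines with the covariates (-0.10), and in total ChREBP KO for Insr within wash batch 1 (-0.13) and Irs2 within wash batch 2 (-0.28). Values not called changed sign too, as for Grb14 in total ChREBP KO with the covariates (-0.26) and within wash batch 2 (-1.85). Tbc1d4 in total ChREBP KO was called without any one of 6 arrays. Quantile normalization before the median of replicate spots, added after the data had been seen, gave 5, 0, 4 and 6 calls among the 10 genes. Of all 38832 probes 17691, 14, 8714 and 17552 were called there, and Akt2 in total ChREBP KO was at 0.51.

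Replicate numbers showed no clear pairing of the arrays in the check that follows, which cannot exclude one. After each group's mean was subtracted from every probe, same-numbered KO and WT arrays correlated at -0.36 to 0.51 over 10 pairs. Of these pairs, 2 correlated best with their own number. With the replicate block, 5, 0, 4 and 5 of the 10 genes and 36, 0, 22 and 33 pathway genes were called. Of all 38832 probes, 15954, 6, 8032 and 16602 were called in that setting, in the same order.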
